A study of Mus musculus with 27 samples.

Results

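A group of 34 genes that mark the endothelium of the liver sinusoid was followed in RNA of hepatic stellate cells (HSCs), mesenchymal neighbours of that endothelium that store vitamin A. The rule was a list of gene names of sinusoidal and general endothelial markers that uses no count, although it was drawn up with earlier results of these data known. All 34 were found among the 53379 genes of the count table. HSCs of male Balb/c mice were sorted under ultraviolet light by their vitamin A signal and were not cultured. Each of the 27 libraries came from an individual experiment. Healthy mice of 10 to 12 weeks received no injection (n = 4), so an oil injection alone was not among these groups. Mice of the acute groups, of the same age, received 1 intraperitoneal injection of carbon tetrachloride (CCl4), a hepatocyte toxin, at 0.5 µL per g of body weight in mineral oil. Their livers were taken 24 h later in 3 experiments, 72 h later in 4 and 7 d later in 4. Mice of the chronic groups, aged 8 to 10 weeks at the start, received 8 injections of the same dose over 4 weeks and gave 4 libraries at each of 24 h, 72 h and 14 d after the last. The ages of the healthy mice were those of the acute groups and not those of the chronic ones.

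Liver sinusoidal endothelial cells line the hepatic capillaries, are perforated by open pores called fenestrae and lack an organised basement membrane. They clear waste molecules and immune complexes from blood through scavenger and Fc receptors, and they depend on vascular endothelial growth factor (VEGF), angiopoietins and bone morphogenetic proteins (BMPs), part of which comes from HSCs. In injured liver the fenestrae can close and a continuous basement membrane can form, a process called capillarisation.

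Members with a listed promoter were searched for short sequences near their transcription start. The RefSeq promoter table for GRCm38.p6, which holds 250 bases before and 50 bases after each start, listed 17 of the 34 members. The letters CAGGAAG and CCGGAAG, ETS-type sequences around the GGAA core that ERG and related factors bind, were searched on both strands. Their reverse complements read CTTCCTG and CTTCCGG. A match to either sequence occurred in 8 of 21 promoters of members (38.1%) and in 20.9% of all 32851 promoters of the same length. By gene, it occurred in 7 of 17 members and in 23.1% of 27025 genes. Every match in a member was to CAGGAAG. Of the 15 members called lower at both acute 24 h and acute 72 h, 8 were in the table. A match to either sequence was held by 2 of these (Calcrl and Ushbp1), or 25%, close to the 23.1% of all genes. A match describes letters and says nothing of binding. The 250 bases before the start are shown for 4 members that were lower after acute injury, 2 with a match and 2 without, each read 5′ to 3′ on the strand of the gene with the match in capitals. The coordinates are chr14:31168642-31168891 (minus strand) for Stab1, chr8:71395802-71396051 (minus strand) for Ushbp1, chr5:75978456-75978705 (minus strand) for Kdr and chr4:94739039-94739288 (plus strand) for Tek.
Stab1: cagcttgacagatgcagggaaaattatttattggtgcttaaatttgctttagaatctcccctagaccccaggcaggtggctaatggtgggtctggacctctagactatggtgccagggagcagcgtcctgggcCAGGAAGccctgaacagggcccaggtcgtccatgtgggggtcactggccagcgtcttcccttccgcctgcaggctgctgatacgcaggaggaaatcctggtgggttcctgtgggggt
Ushbp1: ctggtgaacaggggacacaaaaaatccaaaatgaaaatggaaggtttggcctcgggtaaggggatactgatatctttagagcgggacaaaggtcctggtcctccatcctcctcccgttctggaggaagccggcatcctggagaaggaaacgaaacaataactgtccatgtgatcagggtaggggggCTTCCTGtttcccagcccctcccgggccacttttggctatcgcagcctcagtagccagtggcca
Kdr: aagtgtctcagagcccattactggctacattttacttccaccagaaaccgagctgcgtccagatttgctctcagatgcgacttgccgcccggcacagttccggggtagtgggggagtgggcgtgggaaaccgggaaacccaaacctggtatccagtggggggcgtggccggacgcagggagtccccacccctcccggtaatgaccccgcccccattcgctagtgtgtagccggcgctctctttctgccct
Tek: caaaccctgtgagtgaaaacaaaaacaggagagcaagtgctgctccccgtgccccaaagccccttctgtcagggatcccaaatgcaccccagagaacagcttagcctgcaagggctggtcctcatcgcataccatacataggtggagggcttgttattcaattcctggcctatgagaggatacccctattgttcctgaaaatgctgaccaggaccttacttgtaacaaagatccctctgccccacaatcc

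Values are in CPM, counts scaled to a common library total, with totals adjusted by the trimmed mean of M values (TMM). Total counts ranged from 6.32 M to 13.1 M per library. Lower depth, at most 7.58 M, was found in 8 libraries, and the others held at least 10.8 M. These 8 were the full chronic 14 d group and replicates 1 and 2 of both earlier chronic groups. All 34 members passed the filter on low counts that left 18758 genes. A gene was called changed at a Benjamini-Hochberg adjusted p below 0.05 over all genes tested, from the quasi-likelihood test of edgeR, together with a change above 2-fold. The 6 comparisons with healthy share the same 4 healthy libraries.

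The sorted cells carried the marks of HSCs, and the endothelial genes were mostly minor transcripts. Per kb of exon, the 10 stellate cell markers had a median level of 140.2 CPM in healthy libraries and the 34 members one of 6.04 CPM. Of the members, 15 lay below 5 CPM per kb, among them Stab2 at 1.19 and Vwf at 0.193 CPM per kb. The 5 members above 50 CPM per kb were Ehd3 (573.8), Calcrl (277.2), Eng (234), Bmp2 (127.4) and Ramp2 (65.9). The stellate cell markers ranged from 12.2 to 3018 CPM per kb. The defining sinusoidal markers Stab2, Stab1 and Lyve1 were thus present, at 1.19, 1.56 and 2.72 CPM per kb. In such bulk libraries fewer cells of a type and less RNA per cell cannot be told apart, and neither can endothelial cells in the sort and expression by HSCs.

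Most of the endothelial genes were lower 24 h and 72 h after a single injection. At acute 24 h, 18 of 34 members were called lower than in healthy libraries and 2 higher, beside 12.5% and 9.41% of all 18758 genes, and their median log2 fold change was -1.53, beside -0.12 over all genes. At acute 72 h, 21 were called lower and 1 higher, beside 4.33% and 8.23% of all genes, with a median of -1.65. Both times shared 15 of the lower members, namely Clec4g, Fcgr2b, Oit3, Dnase1l3, Kdr, Flt4, Tek, Ptprb, Pecam1, Cldn5, Mmrn2, Sox7, Sox18, Calcrl and Ushbp1. By acute 7 d, 2 were lower and 1 was higher, beside 5.64% and 9.23% of all genes, with a median of -0.09. Without healthy replicate 3 or without acute 24 h replicate 1 the count of lower members at acute 24 h was 11. The single higher member at acute 7 d, Lyve1, was lost without healthy replicate 1 or 2 or acute 7 d replicate 4, and without this last library the count of lower members was 4.

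After repeated injection fewer of them were called, and 14 d after the last injection only Ehd3 was. At chronic 24 h, 13 members were called lower and 1 higher, beside 8.11% and 11.2% of all genes, with a median log2 fold change of -0.98. Without healthy replicate 3 these counts were 8 and 2. At chronic 72 h, 2 were lower and 0 higher (4.2% and 7.88% of all genes), with a median of -0.5. At an unadjusted p below 0.05, 0 were higher at chronic 72 h, and DESeq2 also called 0. At chronic 14 d, 1 was lower and 0 higher (1.17% and 4.55% of all genes), with a median of 0.5. At an unadjusted p below 0.05, 4 were higher at chronic 14 d, and DESeq2 called 0. The call of Ehd3 was lost when chronic 14 d replicate 3 was left out. The lower members at chronic 24 h included 7 of the 15 lower at both early acute times, namely Clec4g, Oit3, Dnase1l3, Kdr, Tek, Sox18 and Calcrl. Over the 6 comparisons 25 members were lower at least once, 2 were higher (Lyve1 and Ecscr), and 7 were never called (Flt1, Tie1, Vwf, Erg, Sox17, Eng and Nos3).

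**Figure D1:**
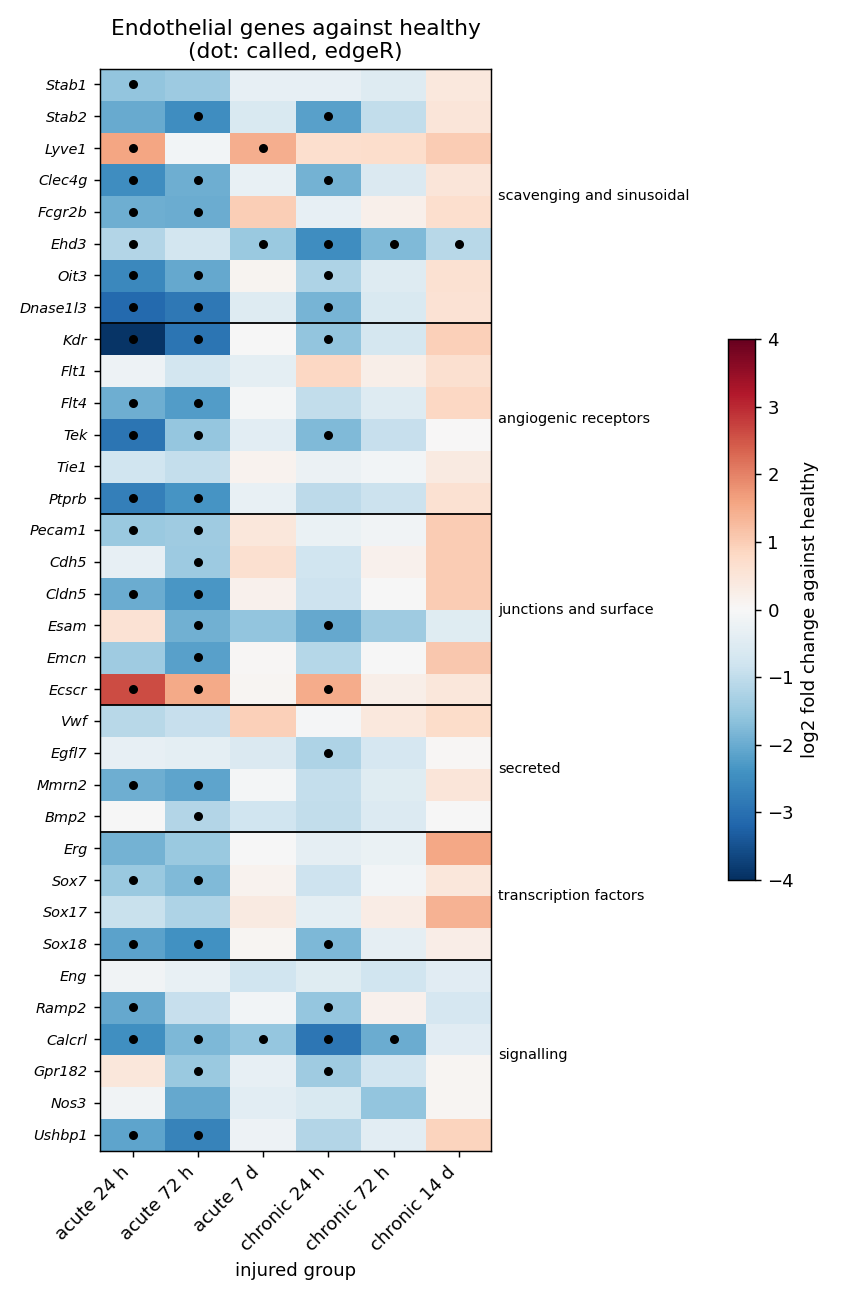
Log2 fold change of each of the 34 endothelial genes (rows, grouped by role) in each injured group against healthy (columns), from edgeR, with a dot where the gene was called. Blue prevails at acute 24 h (18 of 34 called lower), acute 72 h (21) and chronic 24 h (13), while Ecscr is red in these columns.

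Non-overlap of libraries gave a second count that does not rest on the model. All acute 24 h libraries lay below all healthy ones for 15 members, where 20.1% of all genes did so, and above them for 3 (19.7%). For acute 72 h the count was 14 of 34 (9.37% of all genes), and for chronic 24 h it was 9 (11.6%). At chronic 14 d, 4 members lay wholly above healthy (6.94% of all genes) and 1 wholly below (6.39%). The share at acute 72 h stood furthest from its background, and the one at acute 24 h came from a comparison with only 3 injured libraries.

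Scavenging and sinusoidal genes fell together at acute 24 h, where 6 of 8 were called lower and 1 higher, and again at acute 72 h and chronic 24 h, with 5 of 8 lower at each. Over all genes 12.5%, 4.33% and 8.11% were called lower at these times. At acute 24 h 9.41% of all genes were called higher, near the share of 1 of 8. Clec4g, a C-type lectin of the sinusoidal lining, was at 40.9, 49, 81 and 84.4 CPM in the 4 healthy libraries and 10.2, 13.4 and 10.4 CPM at acute 24 h. Clec4g measured 22.8, 24.8, 9.1 and 9.14 CPM at acute 72 h and 36.1, 33.5, 56.8 and 82.1 CPM at acute 7 d. After repeated injection Clec4g was at 13.5, 22.4, 9.82 and 23.8 CPM at chronic 24 h, 48.9, 51.4, 30.04 and 40.5 CPM at chronic 72 h and 143, 115, 46.7 and 55.4 CPM at chronic 14 d. The acute 24 h, acute 72 h and chronic 24 h libraries all lay below the lowest healthy one, whereas the 3 later groups overlapped the healthy range. Clec4g fell at acute 24 h (log2 fold change -2.5, SE 0.47, edgeR adjusted p 0.00023), acute 72 h (log2 fold change -1.96, SE 0.41, edgeR adjusted p 0.00127) and chronic 24 h (log2 fold change -1.88, SE 0.41, edgeR adjusted p 0.00116), and it kept these calls under every alternative tried.

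Dnase1l3, a secreted DNase of sinusoidal endothelium and macrophages, was at 25.2, 46.8, 105 and 80.8 CPM in the 4 healthy libraries and 7.39, 10.7 and 4.13 CPM at acute 24 h. Dnase1l3 measured 17.3, 8.92, 3.74 and 5.81 CPM at acute 72 h and 23.7, 31.5, 37.3 and 87.2 CPM at acute 7 d. After repeated injection Dnase1l3 was at 27.3, 20.4, 6.67 and 17.3 CPM at chronic 24 h, 50.8, 50.6, 31.4 and 37.7 CPM at chronic 72 h and 125, 139, 59.9 and 63.5 CPM at chronic 14 d. The acute 24 h and 72 h libraries were all below the healthy ones, and at chronic 24 h only replicate 1 overlapped them. Dnase1l3 fell by 3.12 on the log2 scale at acute 24 h (SE 0.61, edgeR adjusted p 0.000384), by 2.85 at acute 72 h (SE 0.54, edgeR adjusted p 0.000501) and by 1.86 at chronic 24 h (SE 0.52, edgeR adjusted p 0.00841). Oit3, an endothelial zona pellucida domain protein, followed the same course, with mean levels of 42.4 ± 22.2 CPM in healthy (SD, n = 4), 7.15 ± 1.86 CPM at acute 24 h (SD, n = 3) and 45.5 ± 33.5 CPM at acute 7 d (SD, n = 4). It was called lower at acute 24 h (-2.57), acute 72 h (-2.06) and chronic 24 h (-1.24, log2), the last call being lost without healthy replicate 3 or 4 or chronic 24 h replicate 3 or 4.

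Stab2, the stabilin that takes up hyaluronan, was at 2.81, 5.85, 24.1 and 9.01 CPM in the 4 healthy libraries and 0.801, 4.69 and 2.28 CPM at acute 24 h. Stab2 measured 3.81, 1.56, 1.46 and 0.62 CPM at acute 72 h and 4.85, 6.64, 5.55 and 10.4 CPM at acute 7 d. After repeated injection Stab2 was at 3.45, 3.57, 0 and 2.4 CPM at chronic 24 h, 4.53, 9.29, 3.73 and 3.6 CPM at chronic 72 h and 22.1, 17.6, 10.1 and 9.26 CPM at chronic 14 d. Healthy replicate 3 was well above the other healthy libraries, and chronic 24 h replicate 3 had no count, which allows up to 0.263 CPM. Stab2 was called lower at acute 72 h (log2 fold change -2.49, SE 0.75, edgeR adjusted p 0.0199) and chronic 24 h (log2 fold change -2.18, SE 0.75, edgeR adjusted p 0.0303), in both with overlap. The call at acute 72 h was lost without healthy replicate 3 or acute 72 h replicate 2, 3 or 4, and the one at chronic 24 h without healthy replicate 3 or chronic 24 h replicate 3 or 4. At acute 24 h the difference missed the threshold (log2 fold change -2.01, SE 0.82, edgeR adjusted p 0.062).

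Stab1, its relative that clears oxidised lipoprotein and is shared with macrophages, was at 10.2, 15.9, 28.2 and 10.1 CPM in the 4 healthy libraries and 5.43, 6.94 and 3.69 CPM at acute 24 h. Stab1 measured 9.83, 9.09, 0.894 and 3.64 CPM at acute 72 h and 9.06, 11.6, 9.5 and 20.8 CPM at acute 7 d. After repeated injection Stab1 was at 18.1, 20.9, 3.77 and 9.36 CPM at chronic 24 h, 15.7, 14.1, 7.55 and 8.23 CPM at chronic 72 h and 25.1, 25.5, 19.1 and 17.3 CPM at chronic 14 d. The 3 acute 24 h libraries and the 4 acute 72 h libraries lay below every healthy one, while the other groups overlapped. Stab1 was called lower only at acute 24 h (log2 fold change -1.59, SE 0.6, edgeR adjusted p 0.0432), a call lost without healthy replicate 2 or 3 or any of the acute 24 h libraries, and at acute 72 h it just missed (log2 fold change -1.46, SE 0.54, edgeR adjusted p 0.0543).

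Fcgr2b, the inhibitory Fc receptor through which sinusoidal endothelium removes immune complexes, was at 20.9, 37.5, 86.2 and 73.7 CPM in the 4 healthy libraries and 12.6, 19.8 and 9.92 CPM at acute 24 h. Fcgr2b measured 23.4, 16.1, 5.61 and 9.91 CPM at acute 72 h and 75.9, 98.4, 90.1 and 164 CPM at acute 7 d. After repeated injection Fcgr2b was at 59.8, 59.3, 16.1 and 37.7 CPM at chronic 24 h, 70.5, 78.6, 40.5 and 59.6 CPM at chronic 72 h and 75.5, 156, 62.4 and 57.1 CPM at chronic 14 d. All acute 24 h libraries were below the healthy ones, 1 acute 72 h library overlapped them, and acute 7 d libraries reached above them. Fcgr2b fell at acute 24 h (log2 fold change -1.95, SE 0.54, edgeR adjusted p 0.00678) and acute 72 h (log2 fold change -1.99, SE 0.48, edgeR adjusted p 0.00458). It was not called at chronic 24 h (-0.34, edgeR adjusted p 0.618). Macrophages and B cells express it too, and reads of the related Fc receptor genes could have been assigned to it.

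Lyve1, a hyaluronan receptor of sinusoidal and lymphatic endothelium, went the other way at acute 24 h. Lyve1 was at 3.99, 6.34, 12.6 and 8.84 CPM in the 4 healthy libraries and 32.8, 21 and 17.2 CPM at acute 24 h. Lyve1 measured 12.9, 9.78, 2.52 and 4.49 CPM at acute 72 h and 12.1, 15.8, 12.6 and 46.6 CPM at acute 7 d. After repeated injection Lyve1 was at 15.4, 19.4, 6.14 and 9.76 CPM at chronic 24 h, 15.7, 13.4, 9.26 and 13.2 CPM at chronic 72 h and 18.5, 21.2, 9.86 and 14.5 CPM at chronic 14 d. The acute 24 h libraries were all above the healthy ones, and at acute 7 d replicate 4 stood far above the other 3. Lyve1 rose at acute 24 h (log2 fold change 1.57, SE 0.51, edgeR adjusted p 0.0204) and at acute 7 d (log2 fold change 1.46, SE 0.49, edgeR adjusted p 0.0322). The first call was lost without healthy replicate 1 or 2 or acute 24 h replicate 1, and the second without healthy replicate 1 or 2 or acute 7 d replicate 4, when the log2 fold change was 0.77.

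Ehd3 (ENSMUSG00000024065, a membrane-shaping ATPase of endosomes used as a sinusoidal marker) had the highest level per kb of all members in healthy libraries. Ehd3 was at 2526, 4142, 4354 and 4028 CPM in the 4 healthy libraries and 1647, 1656 and 1750 CPM at acute 24 h. Ehd3 measured 2349, 2062, 2343 and 2328 CPM at acute 72 h and 936, 1165, 1360 and 1883 CPM at acute 7 d. After repeated injection Ehd3 was at 918, 501, 734 and 547 CPM at chronic 24 h, 1201, 1117, 1173 and 955 CPM at chronic 72 h and 1806, 1695, 1318 and 2148 CPM at chronic 14 d. Every injured library lay below every healthy one in all 6 comparisons. Ehd3 was lowest at chronic 24 h (log2 fold change -2.48, SE 0.22, edgeR adjusted p 1.91e-08) and was still lower at chronic 14 d (log2 fold change -1.11, SE 0.21, edgeR adjusted p 0.00168), the last call being lost without chronic 14 d replicate 3. It also fell at acute 24 h (-1.16), acute 7 d (-1.49) and chronic 72 h (-1.76, log2), and at acute 72 h the difference was under 2-fold (-0.73, edgeR adjusted p 0.015).

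**Figure D2:**
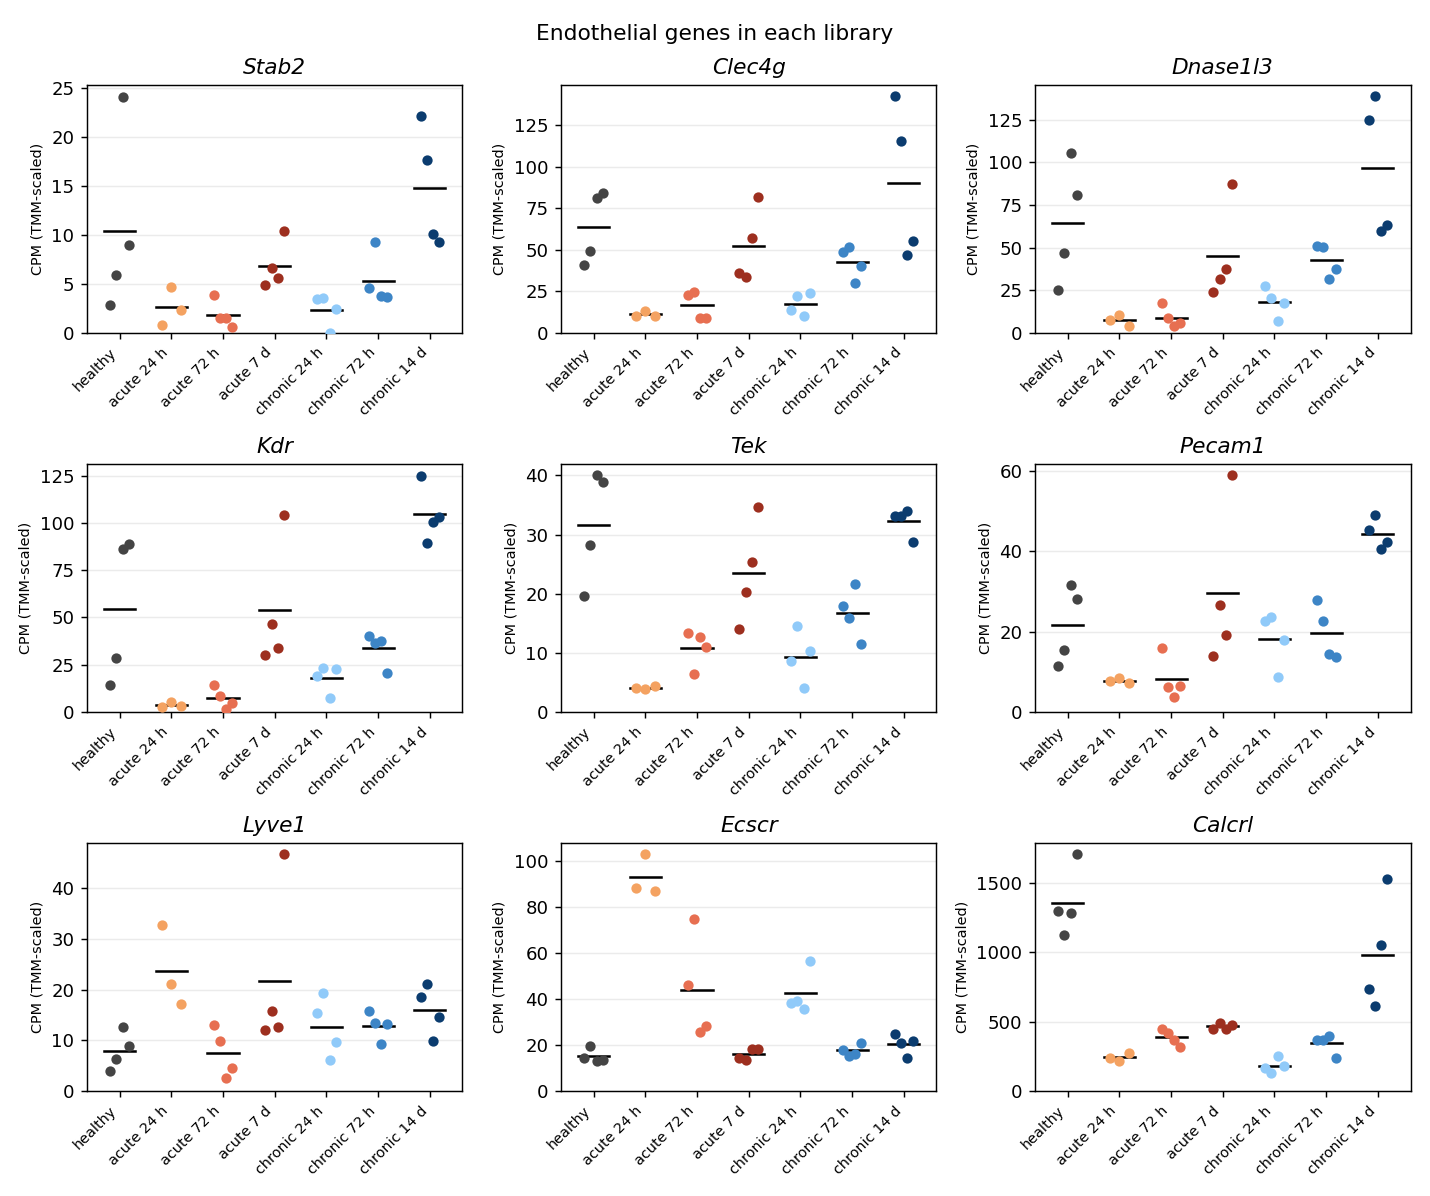
CPM of 9 endothelial genes in each of the 27 libraries (points) with the group mean (bar), on linear axes that start at 0. Clec4g, Dnase1l3, Kdr and Tek are low at acute 24 h and acute 72 h, Calcrl is low in every injured group but chronic 14 d, and Ecscr is high at acute 24 h (mean 92.8 CPM against 15.1 CPM in healthy).

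Among the angiogenic receptors 4 of 6 were called lower at acute 24 h, 4 at acute 72 h and 2 at chronic 24 h. The shares of all genes called lower at these times were 12.5%, 4.33% and 8.11%. Kdr (chromosome 5, 75932827 to 75978458, minus strand, 29 exon blocks), the main VEGF receptor of endothelium, has no match in its promoter above, and neither has Tek. Kdr was at 14.5, 28.6, 86 and 88.8 CPM in the 4 healthy libraries and 2.49, 5.12 and 3.25 CPM at acute 24 h. Kdr measured 14.1, 8.23, 1.46 and 4.96 CPM at acute 72 h and 30.2, 46.7, 33.6 and 104 CPM at acute 7 d. After repeated injection Kdr was at 19, 23.5, 7.45 and 23 CPM at chronic 24 h, 40.1, 36.3, 37.7 and 20.8 CPM at chronic 72 h and 125, 89.5, 101 and 103 CPM at chronic 14 d. Healthy libraries themselves spread over several fold, yet the acute 24 h and 72 h libraries all lay below them, and the chronic 14 d libraries all lay above them. Kdr had the lowest fold change of any member at acute 24 h (log2 fold change -3.91, SE 0.7, edgeR adjusted p 0.000154) and at acute 72 h (log2 fold change -2.93, SE 0.59, edgeR adjusted p 0.000925), and both calls held under every alternative tried. At chronic 24 h the change was smaller (log2 fold change -1.58, SE 0.56, edgeR adjusted p 0.0341) and the call was lost without healthy replicate 3 or 4 or chronic 24 h replicate 1, 3 or 4. At chronic 14 d the difference of 0.94 was not called (edgeR adjusted p 0.317).

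Tek, the receptor of the angiopoietins, was at 19.6, 28.3, 40.1 and 38.8 CPM in the 4 healthy libraries and 4.09, 3.91 and 4.39 CPM at acute 24 h. Tek measured 13.4, 6.41, 12.7 and 11.1 CPM at acute 72 h and 14.1, 20.3, 25.3 and 34.7 CPM at acute 7 d. After repeated injection Tek was at 8.69, 14.6, 4.03 and 10.2 CPM at chronic 24 h, 18, 15.9, 21.6 and 11.4 CPM at chronic 72 h and 33.2, 33.2, 34 and 28.8 CPM at chronic 14 d. Acute 24 h, acute 72 h and chronic 24 h libraries were all below the healthy ones, and the 3 acute 24 h libraries had an SD of 0.244 CPM. Tek fell at acute 24 h (log2 fold change -2.94, SE 0.38, edgeR adjusted p 3.33e-06), acute 72 h (log2 fold change -1.54, SE 0.32, edgeR adjusted p 0.00109) and chronic 24 h (log2 fold change -1.76, SE 0.32, edgeR adjusted p 0.000192), and all 3 calls held under every alternative tried. Ptprb, the phosphatase that acts on Tek, went from 77.2 ± 42 CPM in healthy (SD, n = 4) to 11.6 ± 3.15 CPM at acute 24 h (SD, n = 3) and 15.1 ± 8.04 CPM at acute 72 h (SD, n = 4), and it was called lower at both times (-2.74 and -2.35, log2). Flt4, the receptor of VEGF-C and VEGF-D, was likewise lower at acute 24 h (-1.94) and 72 h (-2.24), the first call being lost without healthy replicate 3 or acute 24 h replicate 1.

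Flt1, the VEGF receptor that can act as a decoy, did not follow Kdr. Flt1 was at 7.43, 13.1, 17.9 and 8.4 CPM in the 4 healthy libraries and 10.1, 11.4 and 9.31 CPM at acute 24 h. Flt1 measured 7.44, 7.62, 5.69 and 7.28 CPM at acute 72 h and 5.09, 8.86, 5.8 and 15.6 CPM at acute 7 d. After repeated injection Flt1 was at 24.1, 17.9, 18.4 and 22.7 CPM at chronic 24 h, 15.9, 14, 12.1 and 12.6 CPM at chronic 72 h and 25.8, 23.6, 13.9 and 10.1 CPM at chronic 14 d. The acute 24 h libraries lay inside the healthy range and the chronic 24 h libraries at or above its top. No comparison of Flt1 with healthy was called, although the last passed the adjusted p at under 2-fold, with -0.19 at acute 24 h (SE 0.34, edgeR adjusted p 0.715) and 0.83 at chronic 24 h (SE 0.32, edgeR adjusted p 0.0484). Tie1, the orphan partner of Tek, had log2 fold changes from -0.96 at acute 72 h to 0.37 at chronic 14 d and was never called.

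Junction and surface genes split. Pecam1, the general endothelial adhesion molecule also known as CD31, was at 11.4, 15.5, 31.7 and 28.1 CPM in the 4 healthy libraries and 7.66, 8.51 and 7.29 CPM at acute 24 h. Pecam1 measured 15.9, 6.32, 3.82 and 6.5 CPM at acute 72 h and 14, 26.6, 19.1 and 59 CPM at acute 7 d. After repeated injection Pecam1 was at 22.6, 23.8, 8.68 and 17.9 CPM at chronic 24 h, 28, 22.6, 14.6 and 13.6 CPM at chronic 72 h and 45.2, 49.1, 40.5 and 42.5 CPM at chronic 14 d. The acute 24 h libraries were below all healthy ones and the chronic 14 d libraries above all of them, and at acute 72 h only replicate 1 overlapped them. Pecam1 fell at acute 24 h (log2 fold change -1.47, SE 0.48, edgeR adjusted p 0.0216) and 72 h (log2 fold change -1.42, SE 0.44, edgeR adjusted p 0.0223). Both calls rested on single libraries, since the first was lost without healthy replicate 3 or 4 or any of the acute 24 h libraries, and the second without healthy replicate 3 or 4 or acute 72 h replicate 2, 3 or 4. Cldn5, a tight junction claudin, fell at acute 24 h (-2.0) and at acute 72 h (-2.32, log2), the first call being lost without healthy replicate 3 or acute 24 h replicate 1 or 3.

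Cdh5, the cadherin of endothelial adherens junctions, was at 5.62, 6.24, 16.7 and 9.71 CPM in the 4 healthy libraries and 9.79, 5.55 and 7.73 CPM at acute 24 h. Cdh5 measured 5.23, 5.2, 1.22 and 2.25 CPM at acute 72 h and 7.84, 12.2, 10.3 and 29 CPM at acute 7 d. After repeated injection Cdh5 was at 3.6, 7.28, 2.89 and 8.08 CPM at chronic 24 h, 11.3, 13.7, 10.5 and 7.44 CPM at chronic 72 h and 20.5, 23.9, 19.1 and 13.4 CPM at chronic 14 d. Acute 72 h libraries lay below every healthy one, and acute 24 h libraries overlapped them. Cdh5 fell at acute 72 h (log2 fold change -1.47, SE 0.46, edgeR adjusted p 0.0253), a call lost without healthy replicate 3 or acute 72 h replicate 3 or 4, and not at acute 24 h (-0.32, edgeR adjusted p 0.666).

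Esam, an adhesion molecule of endothelial junctions, held 109 ± 13.7 CPM in healthy (SD, n = 4), 164 ± 19.8 CPM at acute 24 h (SD, n = 3) and 28.7 ± 13.2 CPM at acute 72 h (SD, n = 4). It was above all healthy libraries but not called at acute 24 h (0.59, edgeR adjusted p 0.554) and was lower at acute 72 h (log2 fold change -1.92, SE 0.67, edgeR adjusted p 0.0421) and chronic 24 h (log2 fold change -2.04, SE 0.67, edgeR adjusted p 0.0241). The acute 72 h call was lost without any of the healthy libraries or acute 72 h replicate 2, 3 or 4, and the chronic 24 h call did not hold under every alternative either. Single libraries stood low within their groups, at 3.85 CPM in acute 7 d replicate 2 and 0.965 CPM in chronic 24 h replicate 3. Emcn, endomucin, had no more than 6.62 CPM in any library and was lower at acute 72 h (log2 fold change -2.17, SE 0.77, edgeR adjusted p 0.0457), a call lost without healthy replicate 2, 3 or 4 or acute 72 h replicate 2, 3 or 4.

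Ecscr, an endothelial surface protein that regulates chemotaxis and apoptosis, was the member that rose most. Ecscr was at 14.3, 19.5, 13.1 and 13.6 CPM in the 4 healthy libraries and 88.2, 103 and 87 CPM at acute 24 h. Ecscr measured 46.2, 74.7, 25.8 and 28.1 CPM at acute 72 h and 14.3, 13.4, 18.1 and 18.2 CPM at acute 7 d. After repeated injection Ecscr was at 38.4, 39, 35.7 and 56.6 CPM at chronic 24 h, 17.9, 15.4, 16.3 and 21 CPM at chronic 72 h and 24.7, 21.1, 14.4 and 21.9 CPM at chronic 14 d. All libraries of acute 24 h, acute 72 h and chronic 24 h lay above all healthy ones, and those of acute 7 d, chronic 72 h and chronic 14 d overlapped them. Ecscr rose at acute 24 h (log2 fold change 2.62, SE 0.28, edgeR adjusted p 2.87e-07), acute 72 h (log2 fold change 1.53, SE 0.26, edgeR adjusted p 0.000148) and chronic 24 h (log2 fold change 1.49, SE 0.26, edgeR adjusted p 0.000106), and these calls held under every alternative tried.

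Of the secreted members, Bmp2 had the highest level per kb in healthy libraries. Bmp2, a BMP that sinusoidal endothelium releases to control hepcidin in hepatocytes, was at 367, 460.4, 536 and 447 CPM in the 4 healthy libraries and 485, 414 and 446 CPM at acute 24 h. Bmp2 measured 244, 212, 169 and 170.4 CPM at acute 72 h and 174, 223, 246 and 408 CPM at acute 7 d. After repeated injection Bmp2 was at 279, 232, 218 and 191 CPM at chronic 24 h, 390.0, 324, 285 and 239.7 CPM at chronic 72 h and 501, 441, 436 and 428 CPM at chronic 14 d. It was within the healthy range at acute 24 h and chronic 14 d and below it at acute 72 h and chronic 24 h. Bmp2 fell at acute 72 h (log2 fold change -1.19, SE 0.21, edgeR adjusted p 0.000213), which held under every alternative tried, and at chronic 24 h the difference passed the test but stayed under 2-fold (-0.98, edgeR adjusted p 0.000805).

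Vwf, the clotting factor of larger vessels, was at 0.816, 2.54, 7.25 and 1.82 CPM in the 4 healthy libraries and 2.31, 1.3 and 0.702 CPM at acute 24 h. Vwf measured 3.72, 1.47, 0.244 and 1.08 CPM at acute 72 h and 2.75, 8.94, 5.71 and 6.9 CPM at acute 7 d. After repeated injection Vwf was at 6.0, 3.84, 0.351 and 2.08 CPM at chronic 24 h, 5.6, 4.57, 4.51 and 2.12 CPM at chronic 72 h and 4.19, 7.5, 3.85 and 5.14 CPM at chronic 14 d. Its libraries overlapped healthy ones in every group, and no comparison with healthy was called (-1.11 at acute 24 h, 0.96 at acute 7 d, edgeR adjusted p 0.293 and 0.333). Mmrn2, an endothelial matrix protein that binds CD93, fell at acute 24 h (-1.95) and 72 h (-2.1, log2) under every alternative tried. Egfl7, a vascular growth factor whose exons overlap Agpat2 and the miRNA gene Mir126a, fell only at chronic 24 h (log2 fold change -1.23, SE 0.32, edgeR adjusted p 0.00564).

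Of the 4 transcription factors, Erg and Sox17 were at 0.385 and 0.402 CPM per kb in healthy libraries, and Sox7 and Sox18 at 3.31 and 8.31 CPM per kb. Erg, an ETS factor of endothelium, was at 1.18, 1.46, 2.7 and 0 CPM in the 4 healthy libraries and 0.356, 0.26 and 0.439 CPM at acute 24 h. Erg measured 0.886, 0.519, 0 and 0.465 CPM at acute 72 h and 1.78, 0.984, 0.885 and 1.61 CPM at acute 7 d. After repeated injection Erg was at 1.65, 0.824, 0.877 and 0.88 CPM at chronic 24 h, 2.0, 1.29, 0.545 and 0.705 CPM at chronic 72 h and 4.73, 4.74, 3.01 and 3.23 CPM at chronic 14 d. Healthy replicate 4 and acute 72 h replicate 3 had no count, which allows up to 0.26 and 0.244 CPM, and the chronic 14 d libraries all lay above the healthy ones. Erg was not called in any comparison with healthy (-1.89 at acute 24 h, edgeR adjusted p 0.0948, and 1.55 at chronic 14 d, edgeR adjusted p 0.19). Sox18 fell at acute 24 h (-2.13), acute 72 h (-2.42) and chronic 24 h (-1.8), and Sox7 at acute 24 h (-1.48) and 72 h (-1.75, log2). The acute 24 h calls of both were lost without healthy replicate 3 or any of the acute 24 h libraries, that of Sox7 also without healthy replicate 4. At acute 72 h the Sox7 call was lost without healthy replicate 4, and at chronic 24 h that of Sox18 without healthy replicate 2, 3 or 4 or chronic 24 h replicate 1, 3 or 4. The acute 72 h call of Sox18 did not hold under every alternative either. Sox17, whose exons overlap a transcript on the other strand over 804 bases, was never called.

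Calcrl and Ramp2, which together form the receptor of adrenomedullin, were abundant and fell. Calcrl (chromosome 2, 84330626 to 84425411, minus strand, 16 exon blocks) was at 1298, 1123, 1285 and 1708 CPM in the 4 healthy libraries and 239.8, 221 and 276 CPM at acute 24 h. Calcrl measured 451, 419, 368 and 321 CPM at acute 72 h and 451, 491, 447 and 479 CPM at acute 7 d. After repeated injection Calcrl was at 168, 127, 256 and 178 CPM at chronic 24 h, 371, 367, 400.0 and 236 CPM at chronic 72 h and 737, 614, 1057 and 1530 CPM at chronic 14 d. Libraries of every injured group but chronic 14 d lay below all healthy ones, and chronic 24 h had the lowest mean. Calcrl fell at acute 24 h (log2 fold change -2.46, SE 0.28, edgeR adjusted p 6e-07), acute 72 h (log2 fold change -1.79, SE 0.24, edgeR adjusted p 1.19e-05), acute 7 d (log2 fold change -1.53, SE 0.24, edgeR adjusted p 6.12e-05), chronic 24 h (log2 fold change -2.89, SE 0.25, edgeR adjusted p 1.33e-08) and chronic 72 h (log2 fold change -1.98, SE 0.24, edgeR adjusted p 4.15e-06). These 5 calls held under every alternative tried, and at chronic 14 d Calcrl was not called (-0.46, edgeR adjusted p 0.249).

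Ramp2, the partner that gives Calcrl its ligand specificity, held 218 ± 69.7 CPM in healthy (SD, n = 4), 52.9 ± 29.6 CPM at acute 24 h (SD, n = 3), 74.4 ± 40.5 CPM at chronic 24 h (SD, n = 4) and 246 ± 28.5 CPM at chronic 72 h (SD, n = 4). It fell at acute 24 h (log2 fold change -2.04, SE 0.53, edgeR adjusted p 0.00428) and chronic 24 h (log2 fold change -1.55, SE 0.47, edgeR adjusted p 0.014). The call at acute 24 h held under every alternative tried, and that at chronic 24 h did not. Exons of Ramp2 share 1103 bases with Vps25 on the same strand, so part of its count is uncertain. Gpr182, an atypical chemokine receptor of sinusoidal endothelium, was not called at acute 24 h (0.45, edgeR adjusted p 0.498) but fell at acute 72 h (log2 fold change -1.47, SE 0.44, edgeR adjusted p 0.0183) and chronic 24 h (log2 fold change -1.43, SE 0.44, edgeR adjusted p 0.0157). The first of these calls was lost without healthy replicate 3 or acute 72 h replicate 3 or 4, and the second without healthy replicate 3. Ushbp1, a little-studied endothelial protein whose promoter above holds a match, fell at acute 24 h (-2.11) and 72 h (-2.68, log2), the first call being lost without healthy replicate 3 or acute 24 h replicate 1 or 3.

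Eng, endoglin, the co-receptor of BMP9 that HSCs also carry, was at 1184, 657, 1006 and 942 CPM in the 4 healthy libraries and 854, 654 and 1048 CPM at acute 24 h. Eng measured 859, 972, 638 and 631 CPM at acute 72 h and 470.3, 638, 573 and 482 CPM at acute 7 d. After repeated injection Eng was at 825, 679, 528 and 704 CPM at chronic 24 h, 585, 714, 522 and 375 CPM at chronic 72 h and 942, 669.6, 618 and 564 CPM at chronic 14 d. Only the acute 7 d libraries lay below all healthy ones. Eng passed the test at acute 7 d (log2 fold change -0.81, SE 0.22, edgeR adjusted p 0.0104) and chronic 72 h (log2 fold change -0.79, SE 0.22, edgeR adjusted p 0.014), both under 2-fold, and was not called. Nos3, the endothelial nitric oxide synthase, had no count in 7 of 27 libraries and no more than 6.74 CPM in the others. Its exons overlap another transcript and Atg9b, and no change against healthy was detectable at this depth.

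The return of these genes after injury was tested directly. Between acute 24 h and acute 7 d, 16 members rose and 2 fell (Esam and Ecscr), beside 17.8% and 9.24% of all genes, with a median log2 difference of 1.54. Of the 18 lower at acute 24 h, 15 were called higher again by acute 7 d, with Kdr first (log2 fold change 3.89, SE 0.7, edgeR adjusted p 0.000135), followed by Fcgr2b (2.92), Oit3 (2.67) and Dnase1l3 (2.6). The same acute 24 h libraries picked these 18 and were the reference of the rise. Libraries low by chance would favour both calls, so this count is not independent of the first. Acute 7 d libraries lay wholly above acute 24 h libraries for 21 members, where 27.1% of all genes did so. Calcrl passed the test but stayed under 2-fold (0.93, edgeR adjusted p 0.00643). Without acute 7 d replicate 4 the counts were 10 rising and 4 falling.

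Between chronic 24 h and chronic 14 d, 19 members rose and 1 fell (Ecscr), beside 6.65% and 6.11% of all genes, again with a median of 1.54. Chronic 14 d libraries lay wholly above chronic 24 h libraries for 23 members, where 11.2% of all genes did so. Of the 13 lower at chronic 24 h, 11 rose again, among them Stab2 (2.68), Kdr (2.52), Dnase1l3 (2.44), Calcrl (2.43) and Clec4g (2.37, log2). Here too the chronic 24 h libraries that picked these 13 were the reference of the rise, so the 2 calls are not independent. Without chronic 24 h replicate 3, in which 28 of the 34 members were lowest, 12 rose, and leaving out chronic 24 h replicate 4 or replicate 3 of chronic 14 d lost the fall of Ecscr. Depth was lower throughout chronic 14 d, and with depth class as a term 9 rose and the fall of Ecscr was lost. The highest group mean was that of chronic 14 d for 22 of the 34 members, and the lowest was acute 72 h for 17 and acute 24 h for 11. Chronic 14 d held only lower-depth libraries, and the part of depth in this ranking was not tested.

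**Figure D3:**
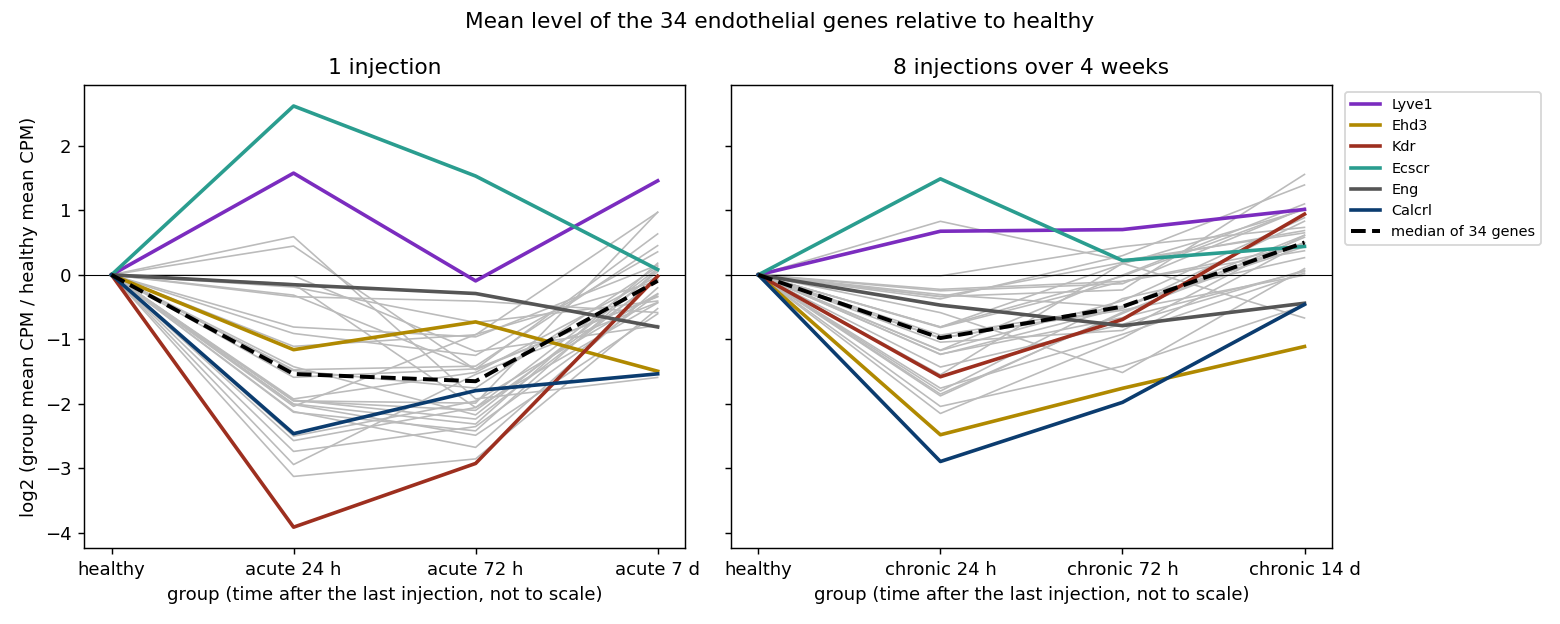
Group mean of each of the 34 genes relative to its healthy mean on a log2 scale, by group after 1 injection (left) and after 8 injections (right). The dashed median of the genes is below 0 at acute 24 h, acute 72 h and chronic 24 h. Kdr is the lowest gene at acute 24 h, Calcrl the lowest at chronic 24 h and Ecscr the highest at acute 24 h.

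A single injection and the last of 8 were compared at equal times for a difference in the response of these genes. At 24 h, 5 members were higher after repeated injury (Fcgr2b, Kdr, Flt1, Tek and Ptprb) and 4 lower (Ehd3, Esam, Ecscr and Gpr182), beside 10.9% and 3.05% of all genes. The largest of these differences were those of Kdr (log2 fold change 2.33, SE 0.66, edgeR adjusted p 0.0137) and Esam (log2 fold change -2.63, SE 0.71, edgeR adjusted p 0.0103). Every higher call depended on single libraries, the count being 0 without acute 24 h replicate 1 or 3, 3 without acute 24 h replicate 2 and 2 without chronic 24 h replicate 1, 2 or 4. In the higher-depth libraries alone, which leave 2 of chronic 24 h, the count was 0, and with depth class as a term it was 1.

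At 72 h, 13 members were higher after repeated injury and 2 lower (Ehd3 and Ecscr), beside 5.11% and 4.01% of all genes, with a median log2 difference of 1.32. Cldn5 (log2 fold change 2.29, SE 0.59, edgeR adjusted p 0.0101), Ushbp1 (log2 fold change 2.26, SE 0.64, edgeR adjusted p 0.0196), Dnase1l3 (log2 fold change 2.25, SE 0.53, edgeR adjusted p 0.00534) and Kdr (log2 fold change 2.23, SE 0.58, edgeR adjusted p 0.0108) differed most. All chronic 72 h libraries lay above all acute 72 h ones for 13 members, where 10.8% of all genes did so. The count of higher members was 5 without acute 72 h replicate 3 or 4 or chronic 72 h replicate 2 and 6 without chronic 72 h replicate 1. It was 3 with depth class as a term and 0 in the higher-depth libraries alone. The count of lower members was 1 without acute 72 h replicate 2, 3 or 4 or chronic 72 h replicate 2 or 4.

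Ligands of these receptors moved in both directions. Of the 12 ligands, 11 could be tested. Angpt2, the angiopoietin that mostly opposes Tek signalling, rose from a mean of 2.62 CPM to 21.4 CPM at chronic 24 h (log2 fold change 3.03, SE 0.34, edgeR adjusted p 4.47e-07) and to 10.4 CPM at acute 72 h (log2 fold change 1.99, SE 0.33, edgeR adjusted p 0.000134). It was also called higher at acute 7 d (2.1), chronic 72 h (2.56) and chronic 14 d (1.46), and not at acute 24 h (0.3, log2). Angpt1, which activates Tek, fell at acute 24 h (log2 fold change -1.39, SE 0.3, edgeR adjusted p 0.000774), from 22.5 to 8.57 CPM.

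Vegfa, the main ligand of Kdr, was not called at acute 24 h (log2 fold change 0.57, SE 0.32, edgeR adjusted p 0.18) or 72 h (log2 fold change -0.12, SE 0.3, edgeR adjusted p 0.822). It rose at chronic 24 h from 35.4 to 141 CPM (log2 fold change 2.0, SE 0.31, edgeR adjusted p 2.68e-05). It was also called higher at acute 7 d (1.44), chronic 72 h (1.58) and chronic 14 d (1.64, log2). Vegfd, a ligand of Flt4, rose at acute 72 h from 1.99 to 54.2 CPM (log2 fold change 4.76, SE 0.58, edgeR adjusted p 3.98e-06), and Pgf, a ligand of Flt1, rose at acute 24 h (log2 fold change 3.47, SE 0.78, edgeR adjusted p 0.00129). Vegfd was also called higher at acute 7 d and in each chronic group, and Pgf at acute 72 h and chronic 24 h. Adm, adrenomedullin, the ligand of Calcrl and Ramp2, rose at acute 72 h from 90.03 to 368 CPM (log2 fold change 2.03, SE 0.28, edgeR adjusted p 1.36e-05).

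Gdf2, which encodes the BMP9 that Eng binds and that HSCs produce, fell from 3625 CPM in healthy to 1191 CPM at chronic 24 h (log2 fold change -1.61, SE 0.19, edgeR adjusted p 9.1e-07). It was also called lower at acute 7 d (-1.07) and chronic 72 h (-1.06, log2). It was not called at acute 24 h (log2 fold change -0.22, SE 0.2, edgeR adjusted p 0.427). Bmp6, which acts with Bmp2 on hepcidin, fell at acute 24 h from 12 to 2.2 CPM (log2 fold change -2.44, SE 0.51, edgeR adjusted p 0.000655). Bmp6 was also called lower at acute 72 h (-1.67) and chronic 24 h (-1.35, log2).

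Of 36 further endothelial genes, 13 were called lower and 3 higher at acute 24 h, 15 and 1 at acute 72 h, and 10 and 5 at chronic 24 h. Over all genes the shares called lower and higher were 12.5% and 9.41%, 4.33% and 8.23%, and 8.11% and 11.2%, so the shares called higher at acute 24 h and chronic 24 h were near the background. The list's median log2 fold changes were -0.75, -1.02 and -0.73 at these times. Cd300lg, an endothelial surface protein with the lowest fold change of that list at acute 24 h, went from 22.4 to 1.02 CPM (log2 fold change -4.44, SE 0.67, edgeR adjusted p 2.05e-05). Bmper, an extracellular regulator of BMPs, rose most, from 8.68 to 215 CPM at acute 24 h (log2 fold change 4.63, SE 0.26, edgeR adjusted p 3.06e-11). Nrp1, a co-receptor of Kdr, fell at acute 24 h (log2 fold change -1.56, SE 0.22, edgeR adjusted p 8.65e-06).

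Within groups, many members were highest or lowest in the same library. Healthy replicate 1 was the lowest healthy library for 27 of 34 members, where it was lowest for 27.3% of all genes, and healthy replicate 3 the highest for 23, where it was highest for 24.2%. Acute 7 d replicate 4 was the highest of its group for 29 members (24.9% of all genes), and acute 72 h replicate 1 for 27 (27.7%). Acute 72 h replicate 3 was the lowest for 25 members (29.5%) and chronic 24 h replicate 3 for 28 (30.4%). The lower-depth replicates 1 and 2 were highest for 13 and 15 members at chronic 24 h (31.7% and 20.7% of all genes). At chronic 72 h they were highest for 20 and 7 (21.1% and 19.7%). The higher-depth replicates 3 and 4 of chronic 72 h were lowest for 14 and 17 members (24.5% and 27%). The part of depth in this split was not tested. Clec4g, Dnase1l3, Oit3 and Kdr were each lowest in chronic 24 h replicate 3, as they were in healthy replicate 1.

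The summed level of all 34 members was 5992, 7349, 8697 and 8296 CPM in the healthy libraries. It ranged over 3680 to 4113 CPM at acute 24 h, 3769 to 4389 CPM at acute 72 h and 2720 to 4820 CPM at acute 7 d. After repeated injection it ranged over 1956 to 2770 CPM at chronic 24 h, 2575 to 3491 CPM at chronic 72 h and 4523 to 5688 CPM at chronic 14 d. No injured library reached the lowest healthy one, which for chronic 14 d rested on Ehd3, the member with the highest count. Without Ehd3 the sum ranged over 3207 to 4343 CPM in healthy and 3205 to 3727 CPM at chronic 14 d, which overlap. The other 5 injured groups stayed below healthy without it, the highest library being one of acute 7 d at 2937 CPM. This sum still rests largely on abundant members such as Calcrl, Eng and Bmp2. At acute 7 d the signalling genes, which include Calcrl and Eng, lay below healthy (1193 to 1386 against 2180 to 2932 CPM). The angiogenic receptors overlapped healthy (114.4 to 329.5 against 90.5 to 334.9 CPM), as did the junction, secreted and transcription factor genes.

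Markers of other cells moved as well. The 11 macrophage markers summed to 154 to 619 CPM in healthy, 148 to 198 CPM at acute 24 h, 153 to 495 CPM at acute 72 h and 709.9 to 3032 CPM at acute 7 d. They summed to 307 to 1608 CPM at chronic 24 h, 538 to 1841 CPM at chronic 72 h and 219 to 1285 CPM at chronic 14 d, and Marco was at 0 in 10 libraries. They were called higher for 9 of 11 genes at acute 7 d and 7 of 11 at chronic 24 h, beside 9.23% and 11.2% of all genes. At acute 24 h 2 were lower and 1 higher, near the shares of all genes (12.5% and 9.41%). The 10 hepatocyte markers summed to 564 to 3878 CPM in healthy, 61.4 to 277 CPM at acute 24 h, 954 to 2587 CPM at acute 72 h and 2101 to 3126 CPM at acute 7 d. They summed to 586 to 2543 CPM at chronic 24 h, 2562 to 4011 CPM at chronic 72 h and 1984 to 7878 CPM at chronic 14 d. At acute 24 h 9 of 10 of them were called lower, beside 12.5% of all genes. Their part in the fall of the endothelial genes was not tested.

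Of the 10 stellate cell markers, 5 were called lower at acute 24 h, 5 at acute 72 h and 7 at chronic 24 h, when Pdgfrb was called higher (log2 fold change 1.03, edgeR adjusted p 0.00136). Over all genes 12.5%, 4.33% and 8.11% were called lower at these times. At chronic 24 h 11.2% of all genes were called higher, about the share of Pdgfrb among the 10 markers. Lrat was called in no comparison with healthy. Their sum ranged over 18740 to 31960 CPM in healthy, 14740 to 24060 CPM at acute 24 h, 11650 to 15290 CPM at acute 72 h and 15710 to 19050 CPM at acute 7 d. It ranged over 12310 to 14800 CPM at chronic 24 h, 18890 to 20310 CPM at chronic 72 h and 17570 to 23210 CPM at chronic 14 d. Healthy replicate 3, the highest for most members, was the lowest for this sum. Of the 4 lymphatic markers, Ccl21a was at 0 in 26 of 27 libraries, and Reln is also on the stellate cell list. Prox1 was lower at acute 24 h (log2 fold change -2.48, edgeR adjusted p 0.00577). Pdpn was higher in every injured group but acute 24 h, rising from 0.328 to 10.3 CPM at chronic 24 h (log2 fold change 4.91, edgeR adjusted p 8.29e-07). Their part in the results was not tested.

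**Figure D4:**
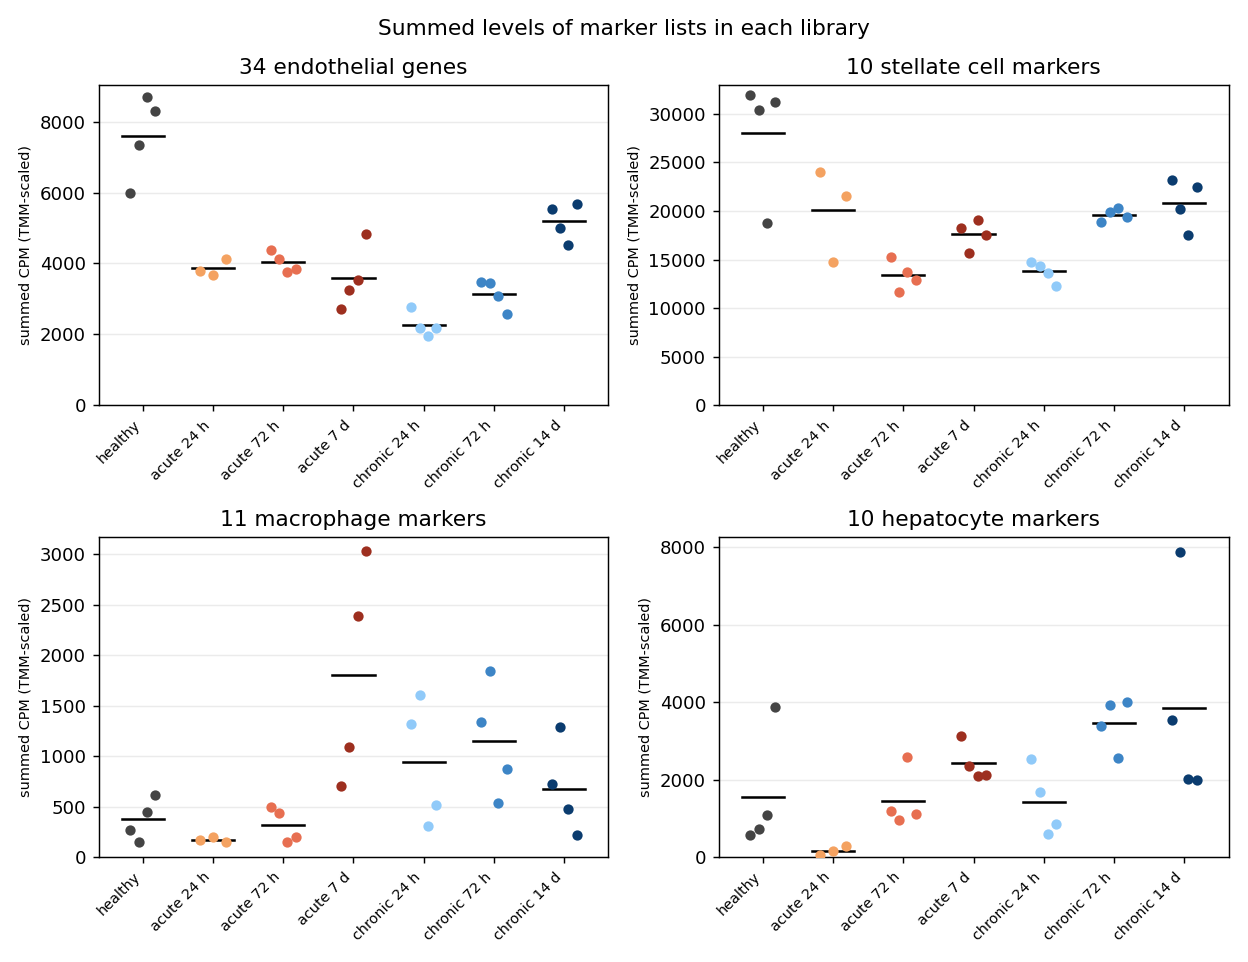
Summed CPM of the 34 endothelial genes and of stellate cell, macrophage and hepatocyte markers in each library (points) with the group mean (bar), on linear axes that start at 0. All injured libraries lie below the healthy ones for the endothelial sum, which a few abundant members dominate and which for chronic 14 d rests on Ehd3. Macrophage markers are highest at acute 7 d, and hepatocyte markers are lowest at acute 24 h.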

How the data were processed

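RNA of sorted HSCs was measured in 27 libraries, 1 per column, with single-end reads. According to the study's methods and the labels, the authors checked reads with FastQC, trimmed them, mapped them to GRCm38 with STAR and used StringTie for gene assembly. What the authors deposited is a table of raw counts per Ensembl gene, not normalized. Strand, versions and annotation are not given in the sources used here, so overlapping and antisense genes are uncertain. GENCODE M21 gave symbols for 53274 of 53379 genes, exon lengths and positions.

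The main test was that of edgeR 4.0.16 under R 4.3.3 (filterByExpr by group, TMM, robust quasi-likelihood fit with 1 mean per group over all libraries) and Benjamini-Hochberg adjustment over 18758 genes. The 10 comparisons were contrasts of that fit. DESeq2 1.42.0 was an alternative, beside other scalings, filters, thresholds, a replicate block, depth class as a term, higher-depth libraries only (below or above 9 M), fits of only the groups compared and each library left out in turn. The procedure was tested on simulated counts. The members and the other lists were chosen with earlier results of these data known. Values of every library were given for 15 members named by the design and for the called members with the highest and lowest fold change against healthy. Upper limits for libraries without a count are 3 counts and cover counting error only. Within-group pairs of libraries (39) had correlations of at least 0.93 and no pair matched within sampling noise. No library was left out. Figures were drawn with matplotlib 3.10.9.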

Additional observations from a re-analysis of the deposited data

Results flagged for a closer look

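In 6 of 114 sets of 4 libraries tested, 1 library stood apart from the other 3, where chance gives about 1 in 20. Stab2 in chronic 72 h replicate 2 was high at 9.29 CPM, where the other 3 lay at 3.6 to 4.53 CPM. Lyve1 in acute 7 d replicate 4 was high at 46.6 CPM, beside 12.1 to 15.8 CPM. Tek in chronic 14 d replicate 4 was low at 28.8 CPM, beside 33.2 to 34 CPM. Erg in chronic 24 h replicate 1 was high at 1.65 CPM, beside 0.824 to 0.88 CPM. Ecscr in chronic 24 h replicate 4 was high at 56.6 CPM, beside 35.7 to 39 CPM. Ehd3 in acute 72 h replicate 2 was low at 2062 CPM, beside 2328 to 2349 CPM.

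Members whose response differed between repeated and single injury, by the direct edgeR contrast at equal times, were these. At 24 h the log2 difference, chronic minus acute, was 1.61 for Fcgr2b, 2.33 for Kdr, 1.02 for Flt1, 1.17 for Tek and 1.69 for Ptprb. It was -1.32 for Ehd3, -2.63 for Esam, -1.13 for Ecscr and -1.88 for Gpr182. At 72 h it was 1.38 for Clec4g, 2.18 for Fcgr2b, 1.54 for Oit3, 2.25 for Dnase1l3, 2.23 for Kdr, 1.71 for Flt4, 1.49 for Ptprb and 1.63 for Cdh5. Further values at 72 h were 2.29 for Cldn5, 1.61 for Mmrn2, 1.65 for Sox7, 2.05 for Sox18, 2.26 for Ushbp1, -1.03 for Ehd3 and -1.31 for Ecscr. Of these 9 and 15 calls, 2 (Ehd3 and Gpr182 at 24 h) and none held under every alternative tried.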

How the results depend on the processing

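No call of a member changed direction under any alternative, and 58 of the 124 calls held under every one. Kept calls numbered 122 of 124 with DESeq2 and with its size factors, 120 with library size alone, 96 with no filter, 99 with depth class as a term and 65 of 103 in the higher-depth libraries. Counts of members that moved by more than 1.5 times follow, and the cause was not tested. At acute 7 d against healthy, 0 were higher (1 in the main test) with no filter, the replicate block, the higher-depth libraries or the 2 groups alone, and 4 lower (2) with no minimum fold. At chronic 24 h, 2 were higher (1) with no minimum fold, and 8 lower (13) with no filter, in the higher-depth libraries or with the 2 groups alone. At chronic 72 h, 4 were lower (2) with no minimum fold and 5 with depth class as a term, and at chronic 14 d none was lower (1) with library size alone. From acute 24 h to 7 d, 4 fell (2) with no minimum fold and 1 with the 2 groups alone. From chronic 24 h to 14 d, 9 rose (19) with depth class as a term, and 0 fell (1) with that term, DESeq2, its size factors, library size alone or the 2 groups alone.

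Between chronic and acute 24 h, 2 were higher (5) with no filter, 1 with depth class as a term and 0 in the higher-depth libraries. Between chronic and acute 72 h, 8 were higher (13) with no filter, 3 with depth class as a term and 0 in the higher-depth libraries, and 1 was lower (2) with DESeq2, its size factors, no filter or the higher-depth libraries. Without Ehd3, the member with the highest count, summed CPM of the members was 3821 in healthy, 2175 at acute 24 h, 1759 at acute 72 h, 2246 at acute 7 d, 1597 at chronic 24 h, 2036 at chronic 72 h and 3444 at chronic 14 d.

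With each library left out in turn, the counts ranged from 1 to 2 higher and 11 to 19 lower at acute 24 h, 1 higher and 15 to 23 lower at acute 72 h, 0 to 1 and 2 to 4 at acute 7 d, 1 to 2 and 8 to 16 at chronic 24 h, 0 and 2 to 3 at chronic 72 h, and 0 and 0 to 1 at chronic 14 d. They ranged from 10 to 16 rising and 2 to 4 falling from acute 24 h to 7 d, and from 12 to 20 and 0 to 1 from chronic 24 h to 14 d. They ranged from 0 to 7 higher and 4 to 5 lower for chronic against acute 24 h, and from 5 to 16 and 1 to 2 for chronic against acute 72 h.

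Taken over all groups, libraries of the same replicate number did not deviate together. Deviations from group means correlated with a median of 0.01 in 78 same-number pairs (-0.18 to 0.21) and of -0.01 in 234 others. Within chronic 24 h and chronic 72 h, replicates 1 and 2 were of lower depth, so there the number went with depth class. A median over all groups cannot exclude a pairing within those groups. With the replicate block the lower count was 17 at acute 24 h, 22 at acute 72 h and 13 at chronic 24 h, and 118 of 124 calls were kept.

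Depth limits Emcn, Erg, Sox17 and Nos3, which had 3 counts or fewer in 2 to 7 libraries each. All libraries of chronic 14 d were of lower depth, so the depth term there rests on the split within chronic 24 h and chronic 72 h. The healthy libraries spread over several fold for Kdr, Stab2 and Fcgr2b, and healthy mice were younger than the chronic groups by the end of treatment.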

Other observations

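Of 14 genes that mark continuous or activated endothelium, 3 were called higher and 1 lower at acute 24 h, 4 were called higher at acute 72 h, and 8 higher and 1 lower at chronic 24 h, with a median log2 fold change of 1.91 at chronic 24 h. Over all genes, more were also called higher than lower at acute 72 h (8.23% and 4.33%) and chronic 24 h (11.2% and 8.11%). At acute 24 h 9.41% of all genes were called higher and 12.5% lower. Sele, the E-selectin of activated endothelium, rose from a mean of 5.29 CPM in healthy to 216 CPM at acute 72 h (log2 fold change 5.35, SE 0.46, edgeR adjusted p 7.37e-08). Edn1, the vasoconstrictor endothelin, rose from 0.844 to 22.2 CPM at chronic 24 h (log2 fold change 4.68, SE 0.64, edgeR adjusted p 5.35e-06). Plvap, a protein of the diaphragms of capillary pores, was named after its values were seen. It was at 10460 CPM in healthy libraries and fell at chronic 72 h to 3208 CPM (log2 fold change -1.71, SE 0.24, edgeR adjusted p 2.12e-05). Several genes of this list are also made by HSCs and other cells, and the source of the RNA was not tested.

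Genes zoned along the sinusoid, 12 in all, were called lower for 5 at acute 24 h, 4 at acute 72 h and 3 at chronic 24 h, and 2 were called higher at chronic 24 h. Over all genes 12.5%, 4.33% and 8.11% were called lower at these times. Called higher at chronic 24 h were 11.2% of all genes, so the 2 of 12 lay near the background. Dll4, a Notch ligand of endothelium, fell from 58.7 CPM in healthy to 9.04 CPM at acute 24 h (log2 fold change -2.7, SE 0.46, edgeR adjusted p 7.64e-05) and to 6.99 CPM at chronic 24 h (log2 fold change -3.08, SE 0.42, edgeR adjusted p 5.37e-06), and at chronic 14 d it was not called (log2 fold change -0.64, SE 0.38, edgeR adjusted p 0.333). Kit, a receptor of pericentral sinusoidal endothelium, fell at acute 24 h (log2 fold change -2.06, SE 0.51, edgeR adjusted p 0.00293) and 72 h (log2 fold change -1.46, SE 0.44, edgeR adjusted p 0.0202) and was higher than in healthy libraries at chronic 14 d (log2 fold change 1.4, SE 0.43, edgeR adjusted p 0.0422).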
